A study of Mus musculus with 2 samples.

Results

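The sites described here, chosen by the overlap of 2 peak lists, are regions inside genes where vitamin D receptor (VDR) occupancy was called in the embryonic mouse heart under both maternal diets. A site was a peak of the normal-diet list that overlapped a peak of the deficient-diet list by at least 1 bp. Its summit, the base with the highest signal, had to lie within a RefSeq gene span and more than 1 kb from every gene end. Only autosomes and the X chromosome were used, and fixed 100-kb bins with 10 or more peaks of either list were left out. The rule gave 2717 shared sites, 11.6% of the 23456 peaks read from the normal-diet list, and these overlapped 2736 of the 37661 deficient-diet peaks. A further 533 shared peaks inside genes lay in the crowded bins and were not counted.

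The study measured VDR binding by chromatin immunoprecipitation and sequencing (ChIP-seq) in the left ventricle of mouse embryos at stage E16.5. Mothers received a normal diet or a vitamin D deficient diet, with 1 library for each. The labels give no strain, genotype, sex, antibody, number of mothers or embryos, or length of the diet, and the sources used here do not say whether tissue was pooled. With 1 library per diet there are no replicates, so every comparison below describes these 2 libraries and not the diets.

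VDR is a nuclear receptor that is activated by the hormonal form of vitamin D, calcitriol. It binds DNA mainly as a heterodimer with a retinoid X receptor (RXR), at a direct repeat of half-sites related to AGGTCA that are separated by 3 bases (a DR3 element). In the heart, loss of VDR in mice is known to lead to enlargement of the organ. VDR sites are commonly found in introns and far from the start of a gene, and many transcription factors also occupy alternative promoters that lie inside a longer gene.

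DNA sequence was at hand only for windows around annotated transcription starts, from 250 bases before to 50 bases after each start, in RefSeq's GRCm38.p6 table, the same build as the mm10 of the peaks. A start inside a gene and more than 1 kb from every gene end marks an alternative start of that gene or of an overlapping one, and shared sites could overlap such windows. Of 4497 windows of this kind outside the crowded bins, 58 (1.29%) overlapped 54 shared sites. These 54 sites were 1.99% of all shared sites (95% exact Clopper-Pearson interval 1.5 to 2.59%), beside 1.59% (1.30 to 1.93%) of the 6422 normal-diet peaks without a partner and 0.833% (0.683 to 1.01%) of the 12720 deficient-diet peaks without one. All such intervals cover counting error only. Shared sites thus lay at internal starts about as often as unshared normal-diet peaks, whose interval overlapped, and more often than unshared deficient-diet peaks, whose interval did not.

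The 250 bases before the start are printed 5′ to 3′ on the strand of the gene for 5 of the sites where both summits fell inside the window and the normal-diet −log10 q was at least 6. This choice was made after the values were seen. Nabp2 also met both conditions, with pileups of 19 and 20 and a GGTTCA half-site, but is not printed because its window may hold exonic sequence, which was not checked here. Capitals mark matches on either strand to CCGGAAG, the core bound by ETS factors, to GGGCGG, the GC box bound by SP and KLF factors, and to the VDR half-site AGGTCA or its common variants, which are GGTTCA as first variant, GGGTCA as second variant and AGTTCA as last variant. Ptpn3, a protein tyrosine phosphatase (chr4:57301838-57302087, minus strand), held a half-site and an ETS core. Cops7a, a subunit of the COP9 signalosome (chr6:124965513-124965762, minus strand), held a GC box and an ETS core close to the start. Fam110a (chr2:151973982-151974231, minus strand) held a half-site. Col27a1, a fibrillar collagen (chr4:63215162-63215411, plus strand), held a GC box and, in lower case, a match to the core motif of CTCF. Prkcz, an atypical protein kinase C (chr4:155345790-155346039, minus strand), held none of the capitalised motifs.
Ptpn3: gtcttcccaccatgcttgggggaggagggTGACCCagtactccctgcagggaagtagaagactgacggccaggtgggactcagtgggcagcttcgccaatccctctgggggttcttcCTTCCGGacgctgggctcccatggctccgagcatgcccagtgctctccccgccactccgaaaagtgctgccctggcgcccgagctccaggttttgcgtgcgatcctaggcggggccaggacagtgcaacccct
Cops7a: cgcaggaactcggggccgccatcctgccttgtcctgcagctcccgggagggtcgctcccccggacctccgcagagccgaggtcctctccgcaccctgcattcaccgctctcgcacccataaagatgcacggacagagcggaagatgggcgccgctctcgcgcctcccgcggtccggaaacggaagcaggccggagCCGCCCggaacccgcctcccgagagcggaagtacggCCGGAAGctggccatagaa
Fam110a: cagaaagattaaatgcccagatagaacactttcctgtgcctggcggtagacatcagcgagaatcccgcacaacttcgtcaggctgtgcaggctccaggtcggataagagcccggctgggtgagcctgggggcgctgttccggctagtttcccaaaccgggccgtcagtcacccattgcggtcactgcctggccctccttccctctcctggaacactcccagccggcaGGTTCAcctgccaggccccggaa
Col27a1: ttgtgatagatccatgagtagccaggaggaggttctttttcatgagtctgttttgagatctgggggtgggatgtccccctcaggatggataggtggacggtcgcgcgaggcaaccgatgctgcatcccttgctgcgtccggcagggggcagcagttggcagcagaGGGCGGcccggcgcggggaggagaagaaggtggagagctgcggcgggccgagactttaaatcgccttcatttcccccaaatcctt
Prkcz: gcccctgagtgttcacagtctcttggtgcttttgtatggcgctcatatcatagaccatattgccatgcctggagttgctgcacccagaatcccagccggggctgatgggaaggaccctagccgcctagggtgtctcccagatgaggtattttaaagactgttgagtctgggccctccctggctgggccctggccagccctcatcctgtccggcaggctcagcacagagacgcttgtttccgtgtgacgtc

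At the Ptpn3 start the normal-diet summit lay 25 bp after it and the deficient-diet summit 74 bp before it. The pileup, the number of extended reads over the summit, was 21 with the normal diet and 24 with the deficient diet. At Cops7a the summits lay 37 bp after and 52 bp before the start, with pileups of 21 and 22. At Col27a1 they lay 51 bp before and 48 bp after it, with pileups of 18 and 19. Their normal-diet pileups of 18 to 21 lay between the upper quartile (18) and the 90th percentile (21) of all shared sites, as their choice by −log10 q implies. The order of the 2 summits along the gene was not fixed. Over all 58 windows the normal-diet summit fell inside the window at 29, and both summits did at 13.

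**Figure D1:**
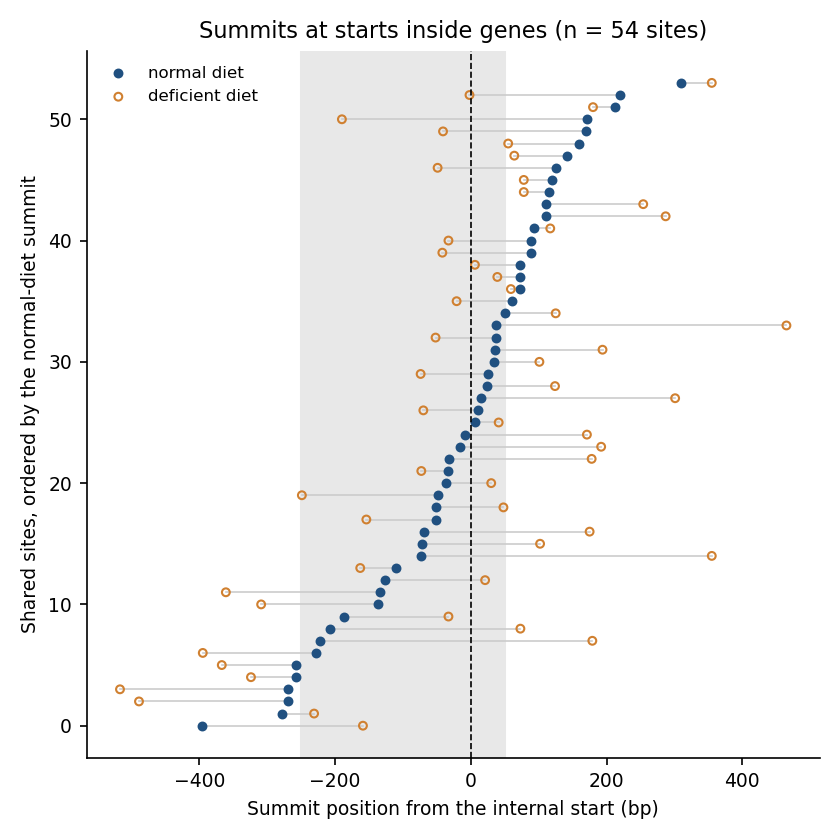
Position of the summit of each of the 54 shared sites at internal starts, in bp from the start along the strand of the gene (horizontal axis), with sites ordered by the normal-diet summit (vertical axis, rank). Filled points are normal-diet summits, open points deficient-diet summits, lines join the 2 summits of a site and the grey band is the 300-base window; summits scatter on both sides of the start.

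The windows with a shared site were rich in G and C. Their median GC content was 61.8%, against 51% for internal windows without one and 61% for the 217 internal windows with a peak of 1 list only. A ratio of observed to expected CpG of at least 0.6, a usual mark of a CpG island, was found in 69.0% of windows with a shared site, 57.6% of windows with a peak of 1 list and 24.7% of windows without a shared site. Base composition therefore moved with the presence of a peak, shared or not, and its part in the motif counts below was examined only through the CpG-rich windows.

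Some of the 58 windows overlapped each other, at Eif4g3, Epb41l1, Fbxo7 and Gm33195, so part of the sequence was counted more than once. The intervals of their motif shares treat the windows as separate. The ETS core CCGGAAG was present on either strand in 15 of the 58 windows (25.9%, 15.3 to 39.0%). It was present in 4.87% of internal windows without a shared site, in 10.6% (6.84 to 15.5%) of those with a peak of 1 list, and in 8.92% of all 32585 start windows. Among windows with a CpG ratio of at least 0.6 the shares were 25% (12.7 to 41.2%, 10 of 40) with a shared site and 12.7% (10.8 to 14.8%) without one, so the gap was smaller there and the intervals overlapped. The windows with the core included those of Tsg101, a component of the endosomal sorting machinery, Pdss1 and Pdss2, which together make the isoprenoid tail of coenzyme Q, and Spg11, all named after their sequence was seen.

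The GC box GGGCGG was present in 50% of windows with a shared site and 28.1% of internal windows without one, but among CpG-rich windows in 60% (43.3 to 75.1%) and 69.4% (66.6 to 72.1%). The intervals overlapped once windows of like CpG content were compared. Any of the 4 VDR half-sites was present in 16 of 58 windows (27.6%, 16.7 to 40.9%), below the 46.4% of internal windows without a shared site and the 43.8% of all start windows. In CpG-rich windows the shares were 20% (9.05 to 35.6%) and 33.2% (30.4 to 36.0%), and the intervals overlapped. A DR3 made of these half-sites was in 0 of 58 windows, which allows a share of up to 5.17% when 3 counts are taken as the limit of a count of 0 (6.16% by the Clopper-Pearson interval), and in 13 of all 32585 windows (0.0399%). These letters are rare in any such window, and a missing match says nothing of whether VDR was bound.

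Most shared sites were low and narrow. The median width was 259 bp (range 181 to 2525) for normal-diet peaks and 257 bp (162 to 1521) for their deficient-diet partners. The authors' fold enrichment at the summit, which MACS2 takes against the local background, had a median of 4.51 (95% interval of the median 4.38 to 4.53) for normal-diet peaks and 3.45 (3.45 to 3.52) for the partners. Their −log10 q had medians of 4.87 and 4.37, which reached 72.3 and 34.9. The median pileup was 16 extended reads (11 to 348) with the normal diet and 23 (16 to 322) with the deficient diet. At such counts the height of a single site is known only roughly.

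The 2 libraries differed in the background used to score peaks. Read depths are not given, so the part of sequencing depth in this difference was not tested, and it is not a measure of noise around the sites. The lowest background from which peaks were scored, here called the genome-wide background, was 2.65 reads for the normal-diet library and 5.38 for the deficient-diet library, 2.03 times higher. Dividing the pileup by it gave a height, whose median over the shared sites was 6.03 with the normal diet and 4.27 with the deficient diet. The height was greater in the normal-diet list at 98.1% of the sites (97.5 to 98.5%). The share was 98.3% at the 1406 shared sites within 1 kb of gene ends and 97.5% at the 2756 outside genes, so it held for every class of shared site and was nothing particular to genes. The lowest height among the members was 4.15 with the normal diet but 2.97 with the deficient diet, so the caller admitted lower sites in the deficient-diet library. A change of binding with diet and this difference between libraries cannot be told apart.

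**Figure D2:**
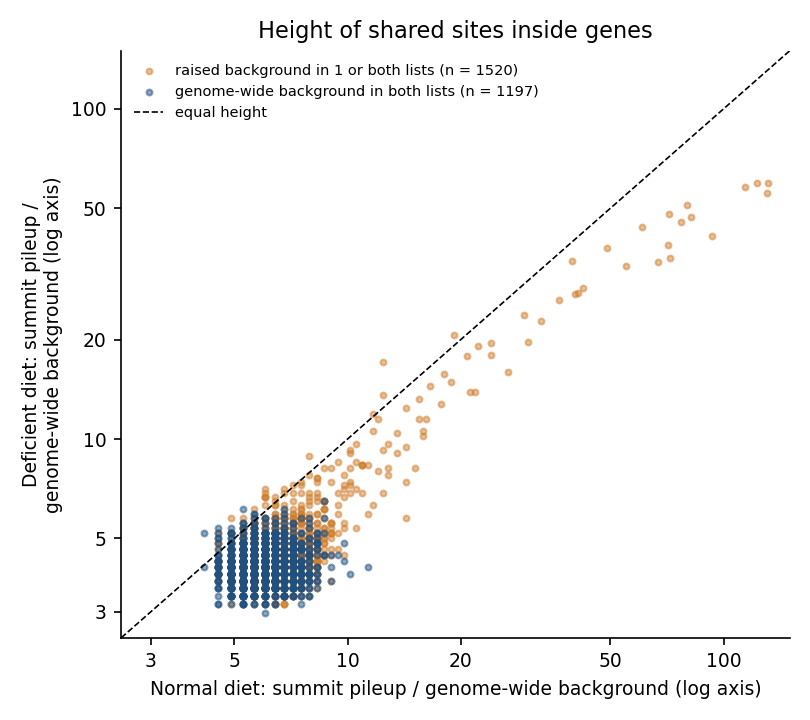
Height of each of the 2717 shared sites, as summit pileup over the genome-wide background, in the normal-diet list (horizontal, log axis) and the deficient-diet list (vertical, log axis). Orange points had a raised local background in 1 or both lists and blue points the genome-wide background in both (n = 1197); the dashed line is equal height, and 98.1% of points lie below it.

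At 1197 sites (44.1%, 42.2 to 46.0%) the caller used the genome-wide background in both lists. The local background was more than 2 times the genome-wide value in the normal-diet list at 79 sites (2.91%, 2.31 to 3.61%). No site at genome-wide background in both lists exceeded a normal-diet height of 11.3, while the tallest site reached 131.2. The heights of the 2 lists ranked together only loosely over all members, with a Spearman rho of 0.30 across 2717 sites that share the same 2 libraries and chromatin, and a rho of 0.12 over the 1197 at genome-wide background. The Pearson correlation of the log2 heights was 0.80 over all members and 0.12 over those 1197. Every member had to pass the caller in both lists, and at the 1197 the pileups ran only from 11 to 30 and from 16 to 35. So narrow a range of low counts limits any correlation. These values therefore cannot decide whether strength in 1 list goes with strength in the other at such sites.

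The summits of the 2 lists lay a median of 87 bp apart (83 to 91 bp). They were within 100 bp at 55.5% of sites and within 50 bp at 33.0%. The shared part of the 2 peaks had a median length of 181 bp. At the limit of the rule, sites in Morc1 and 5031439G07Rik were members by a single shared base pair, while peaks in Bcr and Spag17 touched a deficient-diet peak without overlapping it and were not. In all 42 members overlapped by less than 20 bp, and 161 peaks without a partner had a deficient-diet peak no more than 100 bp away. At the other limit, a site in Gm36118 lay 1008 bp from a gene end and was a member, while one in Mycl lay 1000 bp from an end and was not.

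Of all normal-diet peaks inside genes, 29.7% (28.8 to 30.7%) had a deficient-diet partner. The share was the same near gene ends (29.7%, 28.4 to 31.1%) and higher outside genes (39.5%, 38.3 to 40.6%). Of deficient-diet peaks inside genes, 17.7% (17.1 to 18.4%) were shared, against 23.4% near gene ends and 24.0% outside genes. The share inside genes rose with the strength of the peak, from 24.6% in the lowest of 4 equal classes of −log10 q to 26.8%, 31.3% and 36.2% in the next classes. It reached 64% (53.8 to 73.4%) among the strongest 100 peaks, and 64.2% (55.1 to 72.7%) among the 123 peaks over 2 times the genome-wide background. Since sharing was what chose the members, these shares are a description.

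The share also moved with the length of the gene. It was 27.0% (25.3 to 28.8%) for peaks whose longest host gene spanned up to 30 kb, 27.9% for 30 to 100 kb and 28.8% (26.9 to 30.7%) for 100 to 300 kb. In genes longer than 300 kb it was 39.8% (37.3 to 42.4%, 572 of 1437 peaks), close to the share outside genes. The same step appeared in the deficient-diet list, from 17.2% (16.0 to 18.4%) at 100 to 300 kb to 25% (23.2 to 26.8%) above 300 kb. It was also present when only normal-diet peaks at genome-wide background were taken, at 30.1% (27.6 to 32.8%) and 42.2% (38.8 to 45.7%). The peaks of the longest genes had a higher median −log10 q in the normal-diet list, 4.87 against 4.30 in the class below, and the part of peak strength in the step was not tested.

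On the X chromosome 55 of 112 normal-diet peaks inside genes were shared (49.1%, 39.5 to 58.7%), against 29.5% (28.5 to 30.4%) on the autosomes. The lowest share was on chromosome 11, at 22.9% (19.8 to 26.1%). The density of shared sites ran the other way: the X chromosome held 1.11 per Mb of gene interior (exact Poisson interval 0.839 to 1.45), the lowest of all, and chromosome 7 held 3.47 (3.02 to 3.96), the highest. The X chromosome thus carried few peaks, of which a large share was called in both libraries. The sex of the embryos is not given.

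The shared sites fell in 2290 genes of all kinds, 7.33% of the 31226 genes long enough to have an interior. Among them were 1914 protein-coding genes, 10.6% of 18112, and 303 long noncoding RNA genes. Of the protein-coding genes, 1540 held 1 site, 292 held 2, 50 held 3 and 32 held 4 or more. A further 365 sites had no protein-coding host. At 122 sites the summit lay in overlapping genes, so the gene cannot be told from the peak.

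Which genes held a site moved with gene length. Host genes that code for protein had a median span of 69.9 kb, against 22.6 kb for all such genes with an interior. A shared site lay in 3.95% of protein-coding genes up to 10 kb and in 53.1% of those over 300 kb. Per Mb of interior the order was the reverse, from 12.3 sites in the shortest genes through 4.33 at 10 to 30 kb, 2.67 at 30 to 100 kb and 2.08 at 100 to 300 kb to 1.68 in the longest. Over all genes the density was 2.42 per Mb. Long genes were thus more often hosts, while short genes held more sites for their size.

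Along genes, sites were denser in the stretches 1 to 5 kb from either end. These stretches pool genes of all lengths, and the part of gene length in this was not tested. Of 1823 sites with 1 protein-coding host of known strand, 12.8% (11.3 to 14.4%) lay in the ninth of 10 equal parts of the span and 11.5% (10.04 to 13.02%) in the last, which hold 10.2% and 8.63% of the interior base pairs. The first part held 9.6% (8.29 to 11.05%) of sites and 8.70% of base pairs, a share that lay within the interval. The second part held 8.17% (6.96 to 9.53%) of sites and 10.2% of base pairs. The stretch from 1 to 5 kb after the start held 13.4% (11.8 to 15.03%) of sites in 6.30% of base pairs, and that from 1 to 5 kb before the end 15.9% (14.2 to 17.6%) in 6.28%. In that last stretch peaks without a partner had like shares, with 17% (15.9 to 18.1%) of those of the normal-diet list and 16.8% (16 to 17.6%) of those of the deficient-diet list 1 to 5 kb before the end. From 5 to 20 kb before the end, shared sites had 16.2% (14.6 to 18%), below the 21% (19.8 to 22.2%) of unshared normal-diet and the 20.8% (19.9 to 21.7%) of unshared deficient-diet peaks, with intervals that did not overlap. From 1 to 5 kb after the start, shared sites stood at 13.4% beside 10.6% (9.95 to 11.2%) for unshared deficient-diet peaks, whose interval did not overlap, and 12.5% (11.5 to 13.5%) for unshared normal-diet peaks, whose interval did.

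**Figure D3:**
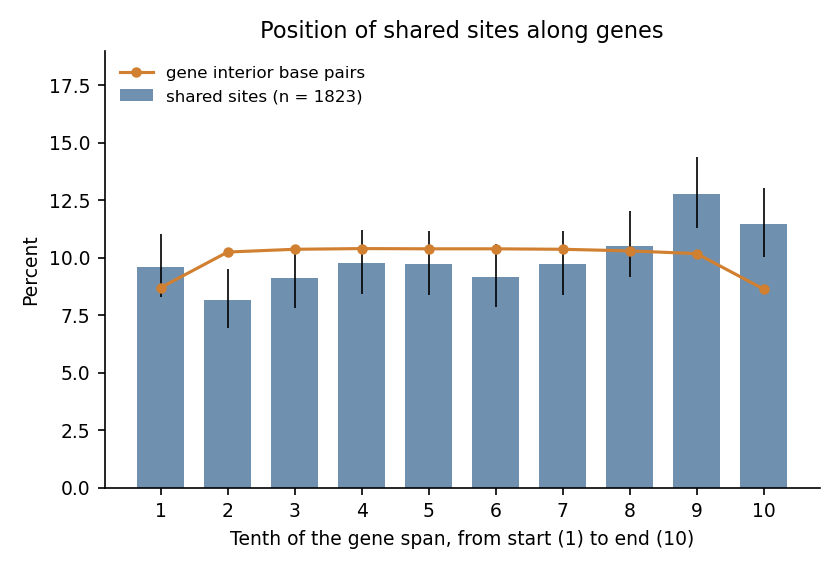
Percent of the 1823 shared sites with 1 protein-coding host of known strand (bars, with 95% exact binomial intervals) in each of 10 equal parts of the gene span from start to end, and percent of gene interior base pairs in the same part (line). The ninth part holds 12.8% of sites and 10.2% of base pairs, the second 8.17% and 10.2%.

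The strongest site by normal-diet −log10 q lay in Cmss1 and the overlapping Filip1l (chr16:57391226-57391689), with pileups of 348 and 322 and −log10 q of 72.3 and 7.75. Its local background was 38.7 and 39.3 times the genome-wide value, so the fold enrichment was only 3.37 and 1.52. Zc3h7a had pileups of 325 and 322 where the local background was 35.6 and 37.3 times the genome-wide one. These towers stood where the local background was high in both lists, at pileups near the highest in either list (362 and 323). Whether that background came from a control library is not given, and its part in the calls was not tested.

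A site in Jarid2, a cofactor of polycomb repressive complex 2 that is needed for heart development, was better separated from its surroundings (chr13:44869535-44870014). It had a pileup of 178 with the normal diet and 185 with the deficient diet, over local backgrounds that were 13.2 and 12.8 times the genome-wide ones. Its −log10 q was 59.1 and 24.7, and the summits were 13 bp apart. Peak1, a kinase-like protein of the cytoskeleton, had pileups of 146 and 180, −log10 q of 50.9 and 34.9 and both summits at the same base. Its deficient-diet −log10 q was the highest of all members. The other sites of the top 8 were in 2700054A10Rik, Cdk8, a kinase of the Mediator complex, Tmem267 and Smo, the signal transducer of the Hedgehog pathway, where the normal-diet background was 50.8, 43.9, 20.97 and 26.8 times the genome-wide one.

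At genome-wide background in both lists the strongest normal-diet site lay in Nfu1, an iron-sulfur cluster protein of mitochondria (chr6:87021821-87022052). Its pileup was 30 with the normal diet and 22 with the deficient diet, with −log10 q of 17.5 and 4.37. Adgrb3, an adhesion receptor, had a pileup of 26 in both lists and its summits at the same base. Parva, an actin-binding partner of integrin-linked kinase at focal adhesions, had pileups of 25 and 24. Gm26552, Mars1 and Pde4dip were also among the top 8, with normal-diet pileups of 24 to 27 and deficient-diet pileups of 21 to 24. Ranking by the normal-diet value picks sites with a high normal-diet pileup, so these pairs of pileups do not compare the 2 libraries.

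Ranked instead by the deficient-diet −log10 q, a choice made after the values were seen, the first isolated site lay in Slc13a3, a sodium-coupled dicarboxylate transporter, with pileups of 23 and 35 and −log10 q of 10.5 and 12.5. Lrba followed with pileups of 18 and 33, then Chst9 with 14 and 33. None of the top 8 isolated sites by the normal-diet −log10 q was among the 5 with the highest deficient-diet −log10 q. Lists this short, drawn from 1197 isolated sites, would seldom overlap in any case, so this does not compare the 2 rankings.

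In 17 genes there were 5 or more shared sites. The immunoglobulin kappa locus Igk, which spans 3171 kb, held 11, the heavy chain locus Igh 6 and the T cell receptor alpha locus Tcra 5, spread over 3028, 2653 and 1433 kb. These loci rearrange only in lymphocytes, and the table treats each as a single gene. The overlapping gene models Gm37013, Gm38666 and Gm38667 on chromosome 18 listed the same 8 sites. Tmem267 held 7, of which 6 stood close together over a background 14.2 to 40.3 times the genome-wide one.

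Filip1 and Fto were unlike these, with sites that were close together and on an ordinary normal-diet background. In each gene 4 of the 5 sites were at the genome-wide background in the normal-diet list. Only 1 of 5 in Filip1 and 2 of 5 in Fto were so in both lists. In Filip1, which codes for a filamin-interacting protein, 5 sites lay within 2.31 kb near the middle of the gene, with normal-diet pileups of 22, 18, 16, 14 and 15 and deficient-diet pileups of 28, 28, 21, 22 and 22. Every normal-diet peak inside Filip1 was shared, 5 of 5, beside 8 deficient-diet peaks. In Fto, an RNA demethylase, 5 sites lay within 17.2 kb, with normal-diet pileups of 23, 19, 15, 15 and 16 and deficient-diet pileups of 29, 31, 31, 24 and 20. Again 5 of 5 normal-diet peaks were shared, beside 7 deficient-diet peaks. For the genes above it was 11 of 24 in Igk, 6 of 15 in Igh, 5 of 12 in Tcra and 7 of 9 in Tmem267. Over all normal-diet peaks inside genes 29.7% were shared. Genes picked for 5 or more shared sites tend to have a high shared part by that choice, so these fractions are a description. Neighbouring sites of this kind share 1 stretch of a gene, so they are not independent members.

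The other genes with many sites were long ones whose sites were mostly far apart. In Nell1, which spans 887.9 kb, 6 of 7 normal-diet peaks were shared, at 6.83 sites per Mb of interior. In Atrnl1, which spans 522.4 kb, 5 of 7 were shared, with normal-diet pileups of 23, 19, 17, 13 and 16 and deficient-diet pileups of 28, 21, 20, 21 and 25. Zfp423, a zinc finger transcription factor, held 5 sites in 300.2 kb, and 5 of its 9 normal-diet peaks were shared. Over all members 398 (14.6%) had another within 10 kb and the median distance to the next member was 164.1 kb.

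The 18 lists of genes were then read for shared sites, each beside the 7.33% of all genes and 10.6% of protein-coding genes that held one, and the 2.42 sites per Mb of all interiors. Among genes of the sarcomere and Z-disc, the contractile units of muscle, 2 of 36 held a site (5.56%, 0.680 to 18.7%), at 0.887 per Mb (0.107 to 3.20). They were Mybpc3, cardiac myosin-binding protein C, with pileups of 17 and 24, and Xirp1, an actin-binding protein, with 22 and 22. Overlapping peaks also lay inside Myh6 and Myh7, but in crowded bins that the rule left out. The count thus depends on that rule, and both the share and the density had intervals that included those of all genes.

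Among genes of calcium handling and ion channels, 7 of 48 held a site (14.6%, 6.07 to 27.8%), at 1.39 per Mb. Itpr1, a calcium release channel, Jph2, which ties the plasma membrane to calcium stores, and Kcnj12, a potassium channel, held 2 each. The Jph2 sites had normal-diet pileups of 19 and 17 and deficient-diet pileups of 23 and 23. Those in Kcnj12 had 19 and 12 against 20 and 21. The sites of these genes were low ones of the common kind, with a normal-diet background no more than 1.45 times the genome-wide one.

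Heart transcription factors held a site in 11 of 44 genes (25%, 13.2 to 40.3%), above the 10.6% of protein-coding genes, at 3.14 per Mb (1.67 to 5.37), an interval that included 2.42. Their median span was 49.94 kb, against 22.55 kb for all protein-coding genes, and the part of gene length in the share was not tested. A share above 10.6% was not particular to this list. The intervals of the nuclear receptor, polycomb, adhesion and neuronal lists below lay above it as well. Casz1 and Tead1, the latter a partner of YAP in cardiomyocyte growth, held 2 each. The Casz1 sites had normal-diet pileups of 15 and 12 and deficient-diet pileups of 28 and 23, with 2 more overlapping peaks inside the gene in crowded bins. Mrtfb, a coactivator of serum response factor, had the second strongest site of the list after Jarid2, with pileups of 71 and 86 on a normal-diet background of 5.81 times the genome-wide value. The other genes of the list with a site were Foxp1, Mef2a, Mef2d, Nfatc1, Prox1, Tbx18 and Wt1. Jarid2, Nfatc1, Tbx18 and Wt1 are counted in other lists as well. Over the 3 heart lists together 20 of 127 genes held 26 sites (15.7%, 9.89 to 23.3%; 1.87 per Mb, 1.22 to 2.74). Of the 126 normal-diet peaks inside these genes 20.6% were shared, a value without an interval, beside 29.7% over all genes.

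Nuclear receptors and their coregulators held a site in 11 of 45 genes (24.4%, 12.9 to 39.5%), above the 10.6% of protein-coding genes. Their density of 2.5 per Mb (1.4 to 4.12) was close to that of all genes. Their median span was 71.94 kb, and the part of gene length in the share was not tested. Esr1, the estrogen receptor alpha, held 3, with normal-diet pileups of 18, 17 and 17 and deficient-diet pileups of 22, 20 and 28. The Esr1 sites lay 300.3, 295 and 299.7 kb from the gene start, so they are neighbours and not independent members. Esrrb, an orphan receptor, held 2. Rxra, the main RXR partner of VDR, also held 2, with normal-diet pileups of 18 and 15 and deficient-diet pileups of 22 and 21. Nr2f1, an orphan receptor of the COUP-TF family, held 1 with pileups of 19 and 21.

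Of 31 genes of vitamin D metabolism and its known targets, 4 held a site (12.9%, 3.63 to 29.8%), at 4.26 per Mb (1.38 to 9.94). Beside Rxra they were Rxrg, another RXR, with pileups of 19 and 21, Atp2b4, a plasma membrane calcium pump, with 12 and 25, and Fgf23, the hormone of phosphate balance, with 17 and 22. Vdr itself had an overlapping site, but only 707 bp from a gene end, which left it out. Overlapping sites in Cyp27a1, a vitamin D hydroxylase, and Casr, the calcium-sensing receptor, also lay too near a gene end, at 572 and 442 bp.

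Among polycomb proteins, remodelers and histone enzymes 14 of 63 genes held a site (22.2%, 12.7 to 34.5%), at 2.66 per Mb. Chd7, a remodeler needed for heart development, held 2, with normal-diet pileups of 20 and 19 and deficient-diet pileups of 20 and 22. Cbx7, of polycomb repressive complex 1, and Smarcc1, of the BAF remodeler, had 1 each, both with a normal-diet pileup of 19. Among genes of chromatin structure 3 of 38 held one, and Wapl, which releases cohesin, held 2 with pileups of 20 and 17 against 31 and 29. The Wapl sites lay 36.63 and 36.14 kb from the gene start, so they too are neighbours.

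The signalling lists were near the density of all genes. Wnt genes held a site in 10 of 50 (20%; 2.9 per Mb, 1.39 to 5.34), transforming growth factor beta and BMP genes in 8 of 42 (19.05%; 2.62 per Mb, 1.13 to 5.15) and Notch genes in 3 of 27 (11.1%; 1.63 per Mb). In the Wnt list Prickle1, of planar cell polarity, had pileups of 18 and 24, Nkd1, an inhibitor, 19 and 23, and Tcf7, a nuclear effector, 16 and 22. The strongest BMP-list site by normal-diet −log10 q was in Zeb1, a repressor active in epithelial to mesenchymal transition, with pileups of 19 and 26. The Notch ligand Dll1 had 16 and 21, as did the coactivator Maml2.

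Energy metabolism had sites in 9 of 49 genes (18.4%; 3.62 per Mb, 1.65 to 6.86), led by Prkag2, a regulatory subunit of AMP-activated kinase, with pileups of 19 and 21, and Acaca, an acetyl-CoA carboxylase, with 17 and 19. Cell adhesion and matrix genes had sites in 11 of 49 (22.4%, 11.8 to 36.6%) but, being long, at 1.62 per Mb (0.99 to 2.504). Col6a3, a chain of collagen VI, Ctnna3, the alpha-T-catenin of heart cell junctions, and Dmd, dystrophin, held 3 each. The Ctnna3 sites had normal-diet pileups of 22, 22 and 20 and deficient-diet pileups of 21, 20 and 20. Those of Dmd had 19, 15 and 15 against 35, 26 and 23. As heights over the genome-wide background, the Dmd sites had 7.16, 5.65 and 5.65 against 6.5, 4.83 and 4.27. The Ctnna3 sites had heights of 8.29, 8.29 and 7.54 against 3.9, 3.71 and 3.71. At all of these sites the height was thus greater in the normal-diet list.

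Markers of other cell types were read in the same way, since left ventricle holds several and occupancy does not tell in which cells it occurred. Endothelial and endocardial genes had sites in 2 of 18 (Erg and Nfatc1), fibroblast, epicardial and smooth muscle genes in 2 of 17 (Tbx18 and Wt1), and blood and immune genes in 1 of 15 (Runx1). Hepatocyte genes had 1 of 19 (Cebpa) and skeletal muscle genes 2 of 18 (Ryr1 with 2 sites and Myh1). Neuronal genes had the highest share of any list, 11 of 19 (57.9%, 33.5 to 79.7%), among them Cntnap2 with 3 and Lrp1b with 2. These genes have a median span of 513.3 kb, and per Mb they held 1.06 sites (0.620 to 1.70), below the 2.42 of all genes. Both values had intervals that included those of all protein-coding genes over 300 kb, 53.1% and 1.68 per Mb.

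**Figure D4:**
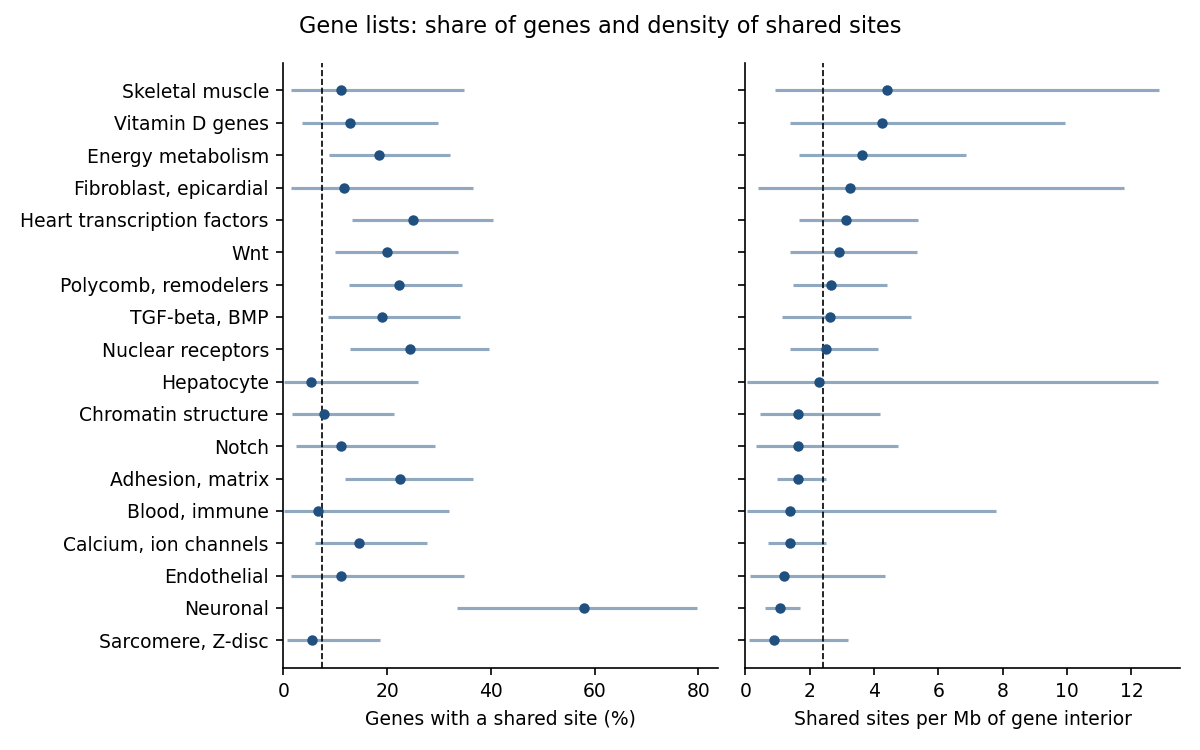
Percent of the genes of each list that held a shared site (left, with 95% exact binomial intervals) and shared sites per Mb of gene interior (right, with 95% exact Poisson intervals), lists ordered by density. Dashed lines are the values over all genes, 7.33% and 2.42 per Mb; neuronal genes are highest in the left panel and next to lowest in the right.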

How the data were processed

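Both deposited files are narrowPeak lists, 1 per library. MACS2 and SAMtools are named without versions, and build mm10, per the submitters' processing notes; a control library and read depths are not given in the sources used here. The authors deposited for each peak a fold enrichment (a ratio of pileup to local background) and −log10 p and −log10 q values. In the normal-diet file the end and the score are joined by a point, and the end was taken before it; 1 line could not be read. From fold and −log10 p the pileup and local background at each summit were recovered by solving the Poisson model of MACS2 (largest error 0.000249). Gene spans came from RefSeq GRCm38.p6 (49554 genes). Shares carry Clopper-Pearson intervals and densities exact Poisson intervals (95%), computed with Python 3.11.15 and SciPy 1.17.1. Having only 1 library per diet, the study allows no test across samples, and none was made. Steps were tested on simulated data. The members, the gene lists and the rules were chosen with earlier results of these data known. Named sites were the 8 with the highest normal-diet −log10 q, the 8 highest at genome-wide background in both lists, genes with the most sites (5 or more, ties kept), up to 4 genes per list by number of sites and −log10 q, and the sites nearest each limit; others are said to be chosen after their values were seen, or complete a list. Some named items are not reported here. Exons, introns and peak sequences were not analysed here.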

Additional observations from a re-analysis of the deposited data

How the results depend on the processing

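No paired analysis was possible because only a single library was made for either diet, so no replicate could be left out either. The intervals cover counting error only, and a pileup near 16 reads limits what a single site can show. A count was taken as kept within 1.5 times its main value, and a share or median within its 95% interval; by this 30 of 56 recomputed values were kept. They include every value with a 3 kb distance from gene ends (2093 sites), with protein-coding genes only, or with crowded bins kept (3250 sites, 25 heart genes), and the 1612 genes left by overlap of 50%. The others changed as follows, and most of these settings change the set by construction. Asking for overlap by 50% of both peaks left 1745 sites, 19.1% of normal-diet peaks inside genes, a median summit distance of 61 bp and 10 genes of the heart lists. Summits within 100 bp gave 1510 sites, 16.52%, 1411 genes, 42 bp and 13 heart genes. A −log10 q of 5 or more in both lists gave 429 sites, 414 genes and 4 heart genes. The share was 14%, here only of the normal-diet peaks inside genes that themselves reached that limit. The median normal-diet fold was 5.17, the median summit distance 69 bp, and 50.1% of sites were at genome-wide background. Leaving out bins with 5 or more peaks gave 1775 sites, 1485 genes and 13 heart genes. Genome-wide background in both lists, chosen after seeing the data, gave 1203 sites, 1143 genes and 10 heart genes. The share was 23.5%, here only of the normal-diet peaks inside genes at that background. The median fold was 4.65 and the median summit distance 78 bp, with 100% at that background by construction. For the shift in summit distance and fold at that background, the cause was not tested.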
